A study of Homo sapiens with 18 samples.

Results

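SETDB1 peaks that lay outside every control H3K9me3 domain and inside one in all 4 SUV39H knockout libraries were described in U937 cells, a human acute myeloid leukaemia cell line. Chromatin immunoprecipitation and sequencing (ChIP-seq) had been carried out in cells carrying a control guide (sgControl), in SUV39H1 knockout cells (SKO) and in SUV39H1/2 double knockout cells (DKO). H3K9me3 and H3K27me3 were each mapped in 2 libraries per genotype, and SETDB1 in 2 libraries of wild-type (WT) cells, so no SETDB1 map of the knockouts was used. The sources used here do not give the guide sequences, the time after editing or whether each knockout line is 1 clone. Replicate 1 SETDB1 peaks on chromosomes 1 to 22 that overlapped a replicate 2 peak by at least 1 bp numbered 12032. Of these, 3239 overlapped no H3K9me3 domain in either sgControl library, and 1287 of those overlapped one in both SKO and both DKO libraries. After 41 peaks with an H3K27me3 domain in both sgControl libraries had been set aside, 1246 gaining peaks remained, 10.4% of the 12032. The peaks were chosen by H3K9me3 in the sgControl and knockout libraries and by H3K27me3 in sgControl, so that contrast is given as a description with no test.

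SETDB1, SUV39H1 and SUV39H2 are enzymes that methylate lysine 9 of histone H3, and trimethylation of this residue (H3K9me3) marks silent heterochromatin. SUV39H1 and SUV39H2 act mainly in pericentromeric and broad repeat-rich heterochromatin. SETDB1 is brought to chromatin by KRAB zinc finger proteins through TRIM28 and by the HUSH complex, and silences endogenous retroviruses and imprinted or clustered genes. H3K27me3 is the mark of Polycomb repressive complex 2 and usually occupies other silent chromatin. Another 2 classes of SETDB1 peaks serve as a frame here. The constant peaks, 7501 or 62.3% of the 12032, lay in an H3K9me3 domain in all 6 libraries. The unmarked peaks, 1320 or 10.97%, lay in none.

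Reads inside H3K9me3 domains numbered 16.5 to 23.6 M (mega) per library and those inside H3K27me3 domains 47.9 to 70.7 M. The sgControl H3K9me3 lists covered more of chromosomes 1 to 22, 1028 and 997 Mb, than the 4 knockout lists, which covered 737 to 772 Mb. The labels do not say that replicates were separate cultures, so the spread between libraries may be technical.

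Only promoters could be shown as sequence, because no genome of the build was at hand. Gaining peaks overlapped 56 promoter windows of 52 genes in the RefSeq table of GRCh38.p14, each running from 250 bases before to 50 bases after a start, and 33 windows lay wholly inside a peak. The following 5 are shown because a gaining peak overlaps them, in genes that silence chromatin (TASOR, TASOR2, ATF7IP), in a zinc finger gene among the strongest peaks (ZNF22) and in the one member window with the THAP11/ZNF143 core (GLO1). All but ZNF22 were chosen after their values had been seen. Capitals mark the motifs found on either strand, which are GGGCGG (SP box), CCAAT, CCGGAAGT (ETS) and the core shared by THAP11 and ZNF143.
TASOR, chr3:56683216-56683515, minus strand: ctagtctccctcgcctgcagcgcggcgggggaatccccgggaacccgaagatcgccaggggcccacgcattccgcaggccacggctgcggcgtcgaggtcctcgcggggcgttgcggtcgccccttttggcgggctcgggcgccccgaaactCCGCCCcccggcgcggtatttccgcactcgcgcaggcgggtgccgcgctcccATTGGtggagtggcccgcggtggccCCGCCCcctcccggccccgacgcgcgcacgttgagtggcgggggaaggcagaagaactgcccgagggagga
TASOR2, chr10:5684588-5684887, plus strand: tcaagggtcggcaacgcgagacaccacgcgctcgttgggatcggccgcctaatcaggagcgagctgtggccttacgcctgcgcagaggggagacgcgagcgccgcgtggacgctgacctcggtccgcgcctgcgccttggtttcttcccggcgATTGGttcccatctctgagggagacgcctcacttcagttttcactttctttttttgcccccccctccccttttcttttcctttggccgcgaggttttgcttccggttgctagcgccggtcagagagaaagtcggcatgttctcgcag
ATF7IP, chr12:14365432-14365731, plus strand: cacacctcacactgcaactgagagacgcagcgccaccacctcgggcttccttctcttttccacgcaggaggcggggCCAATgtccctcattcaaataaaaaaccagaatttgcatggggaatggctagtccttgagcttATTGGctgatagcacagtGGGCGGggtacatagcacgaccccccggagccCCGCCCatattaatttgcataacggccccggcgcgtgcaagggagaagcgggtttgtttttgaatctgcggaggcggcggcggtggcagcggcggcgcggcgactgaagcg
ZNF22, chr10:45000673-45000972, plus strand: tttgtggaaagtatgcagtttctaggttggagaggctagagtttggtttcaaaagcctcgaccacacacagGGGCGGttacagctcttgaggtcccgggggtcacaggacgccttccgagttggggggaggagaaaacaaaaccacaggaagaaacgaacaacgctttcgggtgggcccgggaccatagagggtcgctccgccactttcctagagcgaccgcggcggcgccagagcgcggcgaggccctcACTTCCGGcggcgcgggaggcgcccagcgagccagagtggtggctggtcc
GLO1, chr6:38703096-38703395, minus strand: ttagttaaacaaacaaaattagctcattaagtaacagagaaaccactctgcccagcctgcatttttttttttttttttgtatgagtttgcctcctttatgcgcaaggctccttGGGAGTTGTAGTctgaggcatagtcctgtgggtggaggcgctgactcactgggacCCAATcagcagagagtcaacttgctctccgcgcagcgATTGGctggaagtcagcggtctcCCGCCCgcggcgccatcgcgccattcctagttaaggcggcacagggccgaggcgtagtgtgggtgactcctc

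The peak covered all 300 bases of 4 of these windows and the first 100 of the TASOR2 window. The CCAAT match marked in TASOR2 lies outside those 100 bases and so outside the peak. TASOR held the SP box at 2 places and CCAAT at 1, and ATF7IP held each at 2. The ZNF22 window held the ETS letters and the SP box at 1 place each and no CCAAT. The CSTF2T promoter, also wholly inside one of the strongest gaining peaks, held none of the motifs searched. Member windows had a median GC content of 62.0%, against 62.7% over all 20760 windows. Their median CpG observed over expected ratio was 0.893, against 0.746 over all windows, 0.801 at constant peaks and 0.848 at unmarked peaks.

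Motif matches in the 56 windows, which are descriptions of letters and not of binding, were compared with those in all windows of the same length. The ETS letters occurred in 17.9% of member windows and 5.52% of all, and in 23.8% of the windows at unmarked and 22.1% of those at constant peaks. CCAAT occurred in 41.1% against 34.5%, the SP box in 64.3% against 57.0%, and the E-box CACGTG in 12.5% against 8.26%. In windows at unmarked and constant peaks CCAAT occurred in 29.9% and 44.8%, the SP box in 60.3% and 53.2%, and the E-box in 9.83% and 7.14%. The THAP11/ZNF143 core was in 1 member window, 1.79%, against 2.44% of all and 9.09% of those at constant peaks. TGACGTCA (CRE) was likewise in 1 member window, against 2.34% of all. Its shorter form TGACG, which every CRE contains, was in 35.7% against 27.8%, and in 30.5% at unmarked and 39.0% at constant peaks. The NRF1 palindrome occurred in 3.57% against 1.52%, and the CTCF core in none of the 56 and 0.0867% of all. With 56 windows, 1 window is 1.79%, so the smaller of these differences are 1 or 2 windows. Some windows overlap, or are the same sequence under different gene names, as for FMC1 and LUC7L2. Their letters are therefore counted more than once.

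At the gaining peaks the knockout H3K9me3 domains lay around the SETDB1 summit, since the rule requires a domain at the peak. In a 10 kb window centred on that summit, domains covered on average 4.96% and 5.03% in the sgControl libraries, 81.2% and 83.2% in SKO and 80.7% and 84.0% in DKO. The knockout libraries overlapped one another and lay far from both controls, as the rule for choosing the peaks requires. Away from the summit the knockout share fell steeply, to between 57.3% and 63.6% of peaks at 5 kb and 40.05% to 45.0% at 10 kb. At 50 kb it was 28.7% to 33.2%, against 20.9% and 22.7% in sgControl. At 20 kb the knockout share was 32.4% to 36.7% and that of sgControl 18.9% and 20.3%. The knockout libraries thus lay above both controls at each of these distances. The rule fixes the state at the peak and so favours this order close to it.

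**Figure D1:**
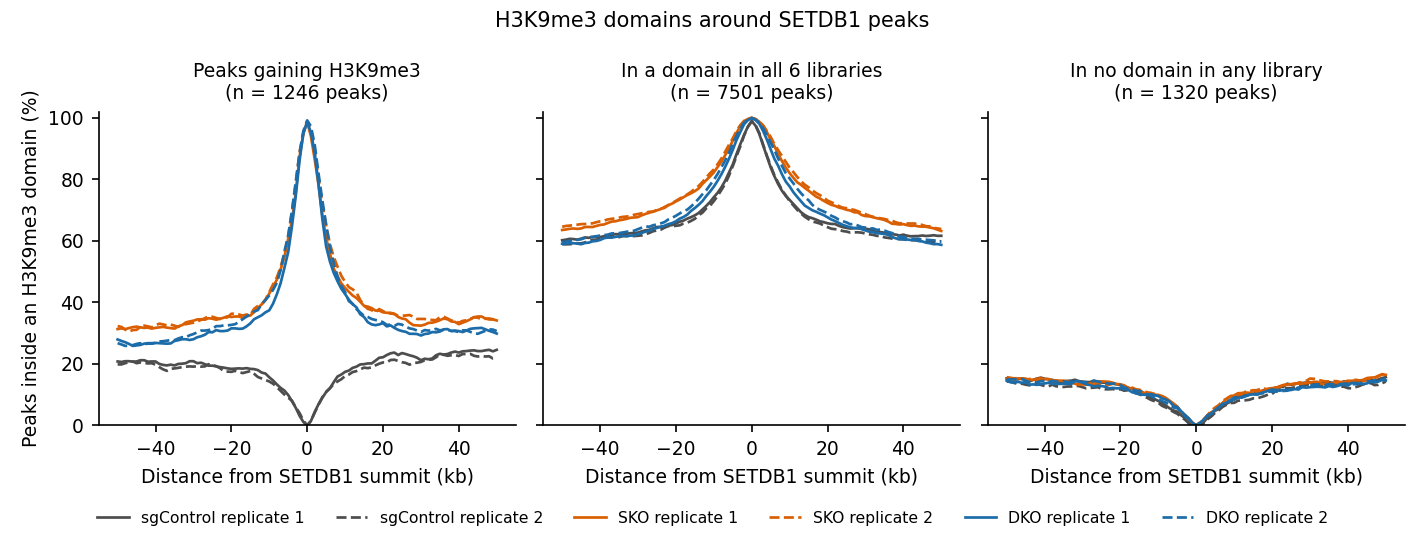
Percentage of SETDB1 peaks lying inside an H3K9me3 domain (vertical axis) at each distance in kb from the SETDB1 summit (horizontal axis), with 1 line per library, for the 1246 gaining, 7501 constant and 1320 unmarked peaks. The gaining peaks show a narrow maximum in all 4 knockout libraries, falling to 40.05% to 45.0% at 10 kb, and a minimum at the summit in both sgControl libraries. The rule that chose the peaks fixes this maximum and this minimum.

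The knockout domains holding these peaks were shorter than those at constant peaks, with similar read density. Their median width per peak was 16.0 kb and 17.6 kb in SKO and 15.2 kb and 16.8 kb in DKO, against 84.0, 91.2, 65.6 and 72.8 kb at constant peaks. Counted once per domain, the medians were 14.4, 15.2, 13.6 and 15.2 kb, against 37.6, 39.2, 31.2 and 34.4 kb at constant peaks and 18.4, 20.8, 17.6 and 21.6 kb over all domains of these libraries. Read density, in reads per kb per M reads in domains, had a median of 1.65 and 1.62 in SKO and 1.63 and 1.59 in DKO. Constant peaks had 1.61, 1.59, 1.53 and 1.502 in the same order, and all domains of a library 1.07 to 1.12. By the score that the authors gave each domain, the gaining domains stood at a median percentile of 73.2 to 77.5 in their library, and between 3.45% and 7.70% of the peaks lay in domains of the lowest 25% by score. These ranks and densities come from the lists that chose the peaks, and a domain in all 4 libraries was required, so they are a description only.

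In each knockout library, 64.1% to 66.4% of the gaining peaks lay in a domain that touched no sgControl H3K9me3 domain at all. Of the 1246 peaks, 746 (59.9%) did so in all 4 libraries, 368 (29.5%) lay in a domain reaching a control domain in all 4, and 132 differed between libraries. The rule, which asks for no control domain at the peak, favours such separate domains. The stretch inside a domain in all 4 libraries had a median of 9.6 kb, and 6.4 kb where it stood apart. In position within a domain, where 0 is the centre and 1 an edge, the SETDB1 summit had a median of 0.318 to 0.361 in the domains that stood apart.

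When the knockout domains holding gaining peaks were merged over the 4 libraries, they formed 1001 regions, of which 825 held 1 gaining peak, 135 held 2 and 41 held 3 or more. The richest region lay on the short arm of chromosome 6, where 17 gaining peaks between chr6:35204946-35954071 lay at or near SCUBE3, ZNF76, DEF6, PPARD, FANCE, RPL10A, TEAD3, FKBP5, ARMC12, SRPK1 and SLC26A8. These include the nuclear receptor PPARD, the ribosomal protein RPL10A, the transcription factor TEAD3, and FKBP5, a chaperone that modulates steroid receptors. The peak at the TEAD3 start had 0% of its 10 kb window in domains in both sgControl libraries and 100% in every knockout library. Its domain was 720.0 and 1034 kb wide in SKO and 1047 and 720.0 kb in DKO. The nearest control domain was 243 kb away from this peak, but its wide knockout domain did not stand apart from control domains in all 4 libraries. The part of the region inside a domain in all 4 libraries, chr6:34938401-35658400, overlapped 9 of the 17 gaining peaks and 11 shared SETDB1 peaks in all, of which 0 were constant.

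Other long stretches inside a domain in all 4 knockout libraries held 1 or 2 gaining peaks among more constant ones. The longest, chr6:45676001-46780000, was 1104 kb long, ran over CLIC5, ENPP4, ENPP5, RCAN2, CYP39A1, SLC25A27, TDRD6 and PLA2G7, and held 1 gaining peak, near ANKRD66, and 9 constant peaks. That peak was among the weaker ones, with a −log10 p of 5.72 and 5.40 in the SETDB1 replicates, and its window was 20.2% and 36.0% covered in sgControl. A stretch of 811 kb over SEMA6D and SLC24A5 on chromosome 15 held 1 gaining and 2 constant peaks. One of 702 kb near BMP2 on chromosome 20 held 2 gaining and 9 constant peaks, and one of 617 kb over TNFRSF21 on chromosome 6 held 2 and 4. The peaks named for SLC24A5 and BMP2 lay 0.070 and 0.138 kb from a control domain, so they sit at the edge of what the rule admits.

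Peaks just inside and just outside the rule were common. The smallest distances to a control domain were 9 bp at PTPN14, 16 bp at SUMF1 and 30 bp at FAM227B, and 79 gaining peaks (6.34%) lay within 800 bp, the step of the domain grid. The median distance was 33.8 kb, with quartiles of 6.99 and 114 kb, against a median of 70.9 kb at unmarked peaks. On the other side, 230 peaks had no control domain and a domain in 3 of the 4 knockout libraries, 98 of them lacking only DKO replicate 2. A further 775 had a domain in 1 sgControl library and all 4 knockout libraries. The opposite pattern, a domain in both sgControl libraries and in no knockout library, held 38 of the 12032 peaks.

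Read from the side of H3K9me3, SETDB1 was dense in sequence that gained the mark and sparse in sequence that lost it. Chromosomes 1 to 22 held 51.6 Mb with a domain in all 4 knockout libraries and neither sgControl library, and 376 Mb covered in all 6. Another 174 Mb were covered in both sgControl and no knockout library, and 1466 Mb in none. Sequence with any other combination of calls was left out. Assembly gaps were not removed from the never-covered length. Summits of the SETDB1 peaks shared by both replicates numbered 26.0 per Mb in gained, 19.5 in constant, 0.219 in lost and 0.934 in never-covered sequence. In the separate SETDB1 lists the gained sequence had 44.4 and 45.1 summits per Mb and the constant sequence 33.8 and 34.7. Their means were 44.8 ± 0.520 and 34.3 ± 0.659 (SD, n = 2 SETDB1 lists). The difference exceeds this spread of the SETDB1 lists, which does not include the spread of the H3K9me3 calls. Those calls also chose the gaining peaks, so the densities are a description of the same lists. The lost sequence had 0.861 ± 0.00407 and the never-covered sequence 2.35 ± 0.121 summits per Mb. No test was made, since 2 libraries of SETDB1 give no usable exact p and stretches of genome are not replicates.

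**Figure D2:**
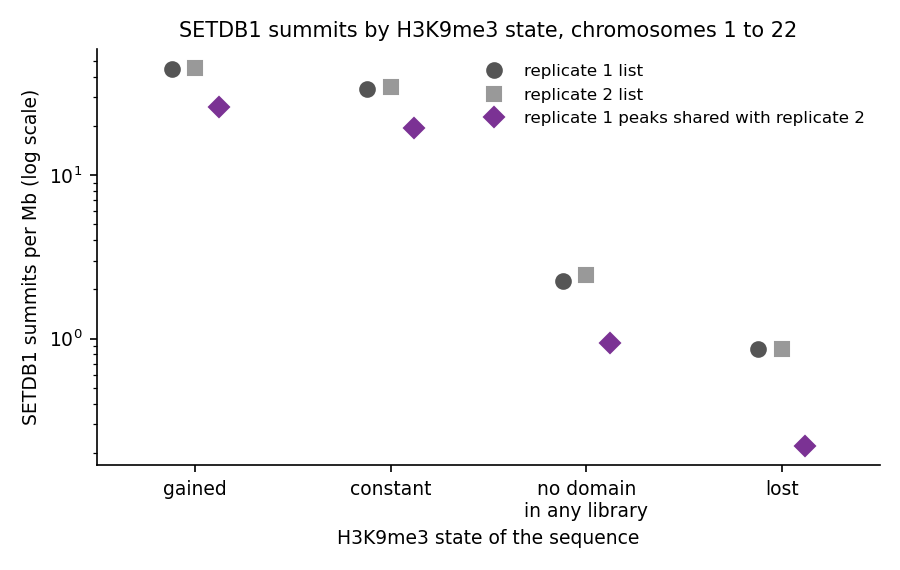
SETDB1 summits per Mb on a log scale (vertical axis) in sequence that gained, kept, never had or lost H3K9me3 domains (horizontal axis), with 1 point for each SETDB1 replicate list and 1 for the peaks shared by both. The gained sequence has the most summits per Mb in each list and the lost sequence the fewest. Sequence with any other combination of calls is left out.

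Most gained stretches nevertheless overlapped no shared SETDB1 peak. Of 8045 gained stretches, 1295 (16.1%) overlapped a peak, against 19.8% of 19299 constant and 0.291% of 14111 lost stretches. The share rose with length, from 8.36% of gained stretches under 4 kb to 19.7% at 4 to 10 kb, 21.8% at 10 to 20 kb and 31.4% at 20 kb or more. Constant stretches of these lengths overlapped a peak in 4.15%, 18.6%, 18.5% and 28.5%.

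Gaining peaks were intermediate in SETDB1 strength. The median −log10 p of the peaks, as given by the authors, was 9.21 in replicate 1 and 8.45 in replicate 2, against 9.65 and 9.24 at constant and 8.29 and 7.88 at unmarked peaks. As percentiles of the whole lists these are 69.9 and 69.9, 73.3 and 74.7, and 64.5 and 67.2. Median peak widths were 1026 bp in gaining, 1218 bp in constant and 772.5 bp in unmarked peaks. A −log10 p of 20 or more in both replicates was reached by 75 gaining peaks (6.02%), 13.6% of constant and 5.45% of unmarked peaks.

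The strongest gaining peak stood far above the rest. It lay outside genes 21.8 kb from RABL2A, a small GTPase gene, at chr2:113601650-113605425, with −log10 p values of 163 and 135. Its 10 kb window was uncovered in both sgControl libraries and covered to 64.0% and 72.0% in SKO and 72.0% and 88.0% in DKO. Its domains were short, 6.4 to 8.8 kb, and held 137 to 147 reads, so they stood at the 12.6, 2.10, 2.01 and 0.791 percentile of the scores in SKO and DKO. The strongest SETDB1 signal was thus paired with some of the lowest-ranked domains. RABL2A has near-identical relatives in the genome, and the sources used here do not say how the authors treated reads with several matches.

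The next strongest peaks, by the lower of the replicate values, lay by genes of varied function. The peak 955 bp from FASTKD2, a mitochondrial RNA-binding protein gene, had 0% and 0% coverage in sgControl, 64.0% and 48.0% in SKO and 24.0% and 24.0% in DKO. That near LGALS3, which encodes galectin-3, had 0% and 0% in sgControl, 100% and 87.6% in SKO and 100% and 100% in DKO. The peak at the start of CSTF2T, a variant subunit of the mRNA cleavage stimulation factor, had 0% in sgControl and 90.6% to 100% in the 4 knockout libraries. It was the one of these with H3K27me3 in its window, 34.6% in each of the 6 libraries. These 3 peaks had no H3K9me3 domain in the 10 kb around them in sgControl.

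The others of the 10 strongest were the peaks in CCDC12, near RAB10, a vesicle-trafficking GTPase gene, near SPRING1, a regulator of SREBP processing, near SRD5A3, a polyprenol reductase gene, and at the zinc finger genes ZNF22 and ZNF79. All had 0% coverage in sgControl and between 48.0% and 100% in each knockout library. The ZNF79 peak had 100% in all 4, in domains of 11.2 to 15.2 kb. ZNF22 had a second gaining peak over its promoter, with −log10 p values of 21.0 and 12.2, in the same domains as the stronger peak downstream. Its window was 100% and 84.2% covered in SKO and 92.2% and 92.2% in DKO.

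Position in genes set the gaining peaks apart from the unmarked ones. Peaks within 2 kb of a gene start made up 111 of the 1246 (8.91%), against 4.55% of constant and 36.1% of unmarked peaks. Among the 3101 peaks without a control H3K9me3 domain that met the same H3K27me3 condition, 40.2% were gaining peaks. At gene starts this share was 16.3% of 681, in gene bodies away from starts 48.2% of 1122, and outside genes 45.8% of 1298. SETDB1 peaks at gene starts without control H3K9me3 thus mostly had none in the knockouts either, with 69.8% in no domain of any library.

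**Figure D3:**
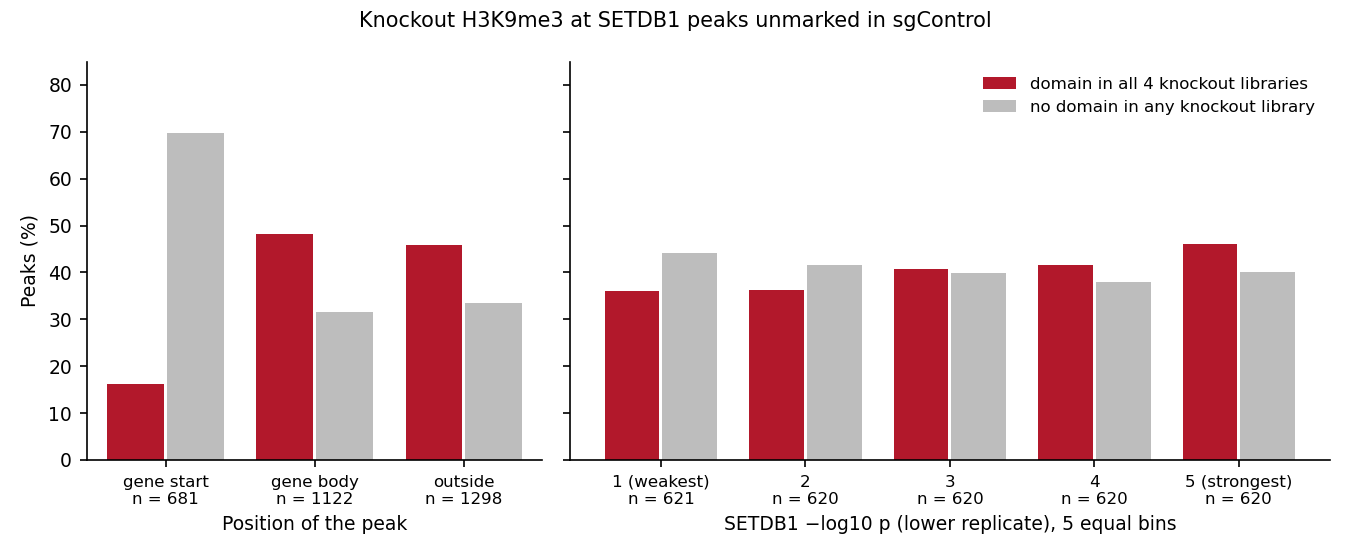
Percentage of SETDB1 peaks without a control H3K9me3 domain (vertical axis) that had a domain in all 4 knockout libraries or in none of them, by position relative to genes (left) and by SETDB1 strength in 5 equal bins of the lower −log10 p (right), with the number of peaks under each pair. At gene starts 16.3% had a domain in all 4, against 45.8% and 48.2% elsewhere.

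SETDB1 strength made a smaller difference within these peaks. With the peaks ranked by SETDB1 −log10 p and divided into 5 equal bins, from weakest to strongest, the share of gaining peaks was 36.1%, 36.3%, 40.8%, 41.6% and 46.1%. Away from gene starts it was 41.2%, 41.7%, 46.7%, 49.8% and 56.8%. The peaks of a bin share libraries and neighbouring domains, so the trend is given without a test.

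The share of gaining peaks among all SETDB1 peaks varied widely between chromosomes. It was 33.8% on chromosome 22, which had 65 peaks and only 4 constant ones, 20.7% on chromosome 11 and 18.6% on chromosome 9. It was 3.95% on chromosome 19, where 1190 of 1469 peaks were constant, and 5.36% on chromosome 13. Among peaks without control H3K9me3 the range narrowed to between 30.5% on chromosome 13 and 47.6% on chromosome 6, with 37.3% on chromosome 22 and 31.4% on chromosome 19.

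Zinc finger genes, the classical SETDB1 targets, held gaining peaks in a share near that of all genes. Of 553 annotated on chromosomes 1 to 22, 346 (62.6%) had a constant peak in the gene body or within 2 kb, and 21 (3.797%) a gaining one. Over all 18496 protein-coding genes, 1606 (8.68%) had a constant and 583 (3.15%) a gaining peak. In ZNF438 the peak window was 0% covered in both sgControl libraries, 74.2% and 66.2% in SKO and 66.2% and 66.2% in DKO. In ZNF286A it was 23.2% and 39.2% covered in sgControl and 100% in all 4 knockout libraries. ZNF518A was the more variable of those named, with 48.0%, 44.2%, 44.2% and 84.2% in SKO and DKO from 0% in sgControl. Both peaks of ZNF22, and those of ZNF79, ZNF385D and ZKSCAN2, had between 83.2% and 100% in every knockout library.

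Genes of the H3K9 methylation and silencing machinery held gaining peaks in 5 of 25 cases (20.0%), beside the 3.15% of all protein-coding genes. Of the same list, 3 genes had a constant peak and 2 an unmarked one. The list was chosen with earlier results of these data known, so its share is a description and no evidence of enrichment. The 5 include MORC2, whose peak also lies near TUG1, and KDM4B, whose peak was weak. At the start of TASOR, which encodes a core subunit of the HUSH complex, the SETDB1 peak had −log10 p values of 36.8 and 26.8. Its window was 0% covered in both sgControl libraries and 100% in all 4 knockout libraries, in domains of 18.4 and 15.2 kb in SKO and 21.6 and 16.8 kb in DKO. The nearest control domain was 58.8 kb away.

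TASOR2, a relative of TASOR, had a peak of −log10 p 47.9 and 22.3 beside its start. Its window was likewise 0% covered in sgControl and 100% in the knockouts, and its domains were 44.8 and 49.6 kb wide in SKO and 47.2 and 52.8 kb in DKO. The peak lying 468 bp from TUG1 and within 2 kb of MORC2, which encodes an ATPase that works with HUSH, had the same coverage, with domains of 22.4 to 29.6 kb. TUG1 and MORC2 are neighbours, and the peak cannot be assigned to one of them.

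ATF7IP, which encodes a partner that stabilises SETDB1, had 3 gaining peaks over and downstream of a start, the first 2 of which overlap the same replicate 2 peak. They were weaker, with −log10 p values of 6.27 to 7.72 in replicate 1, and 0.528 to 1.61 kb from a control domain. Their windows were 21.7% to 35.6% covered in sgControl replicate 1, 52.0% in replicate 2 and 100% in all knockout libraries. The knockout domain at ATF7IP reached a control domain, whereas those at TASOR and MORC2 stood apart from control domains in all 4 libraries. The domain at TASOR2, whose peak lay 5.71 kb from a control domain, did not stand apart in all 4. In KDM4B, an H3K9 demethylase gene, a weak peak of −log10 p 5.87 and 6.31 had 0% in sgControl, 100% and 100% in SKO and 72.0% and 100% in DKO.

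**Figure D4:**
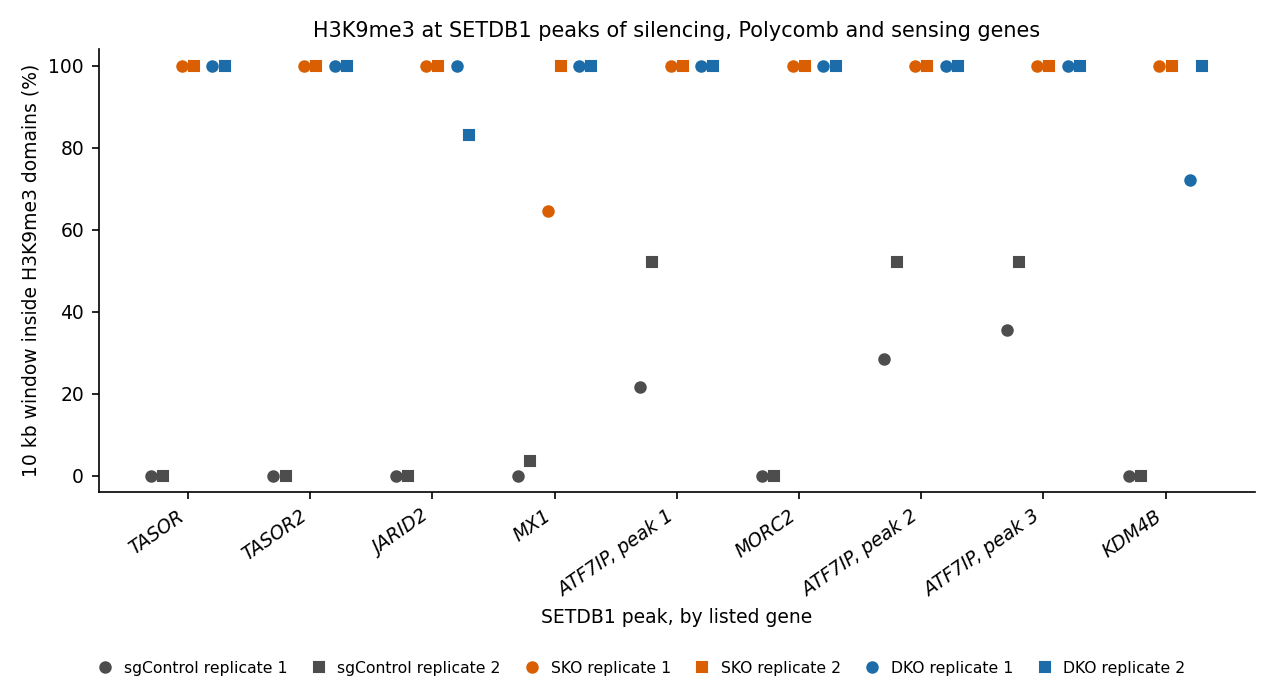
Percentage of the 10 kb window around each gaining SETDB1 peak that lay inside H3K9me3 domains (vertical axis), with 1 point per library, for the listed genes of the silencing machinery, JARID2 (Polycomb) and MX1 (interferon response). All points of the knockout libraries lie at 64.5% or above and those of sgControl at 52.0% or below.

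The remaining gene lists had few gaining peaks or none. Of 16 Polycomb genes 1 had one, JARID2, an accessory subunit of Polycomb repressive complex 2, with 0% and 0% in sgControl, 100% and 100% in SKO and 100% and 83.0% in DKO. Of 37 nucleic acid sensing and interferon genes 1 had one, MX1, an interferon-induced antiviral GTPase gene. Its peak lay 1153 bp from the start, with 0% and 3.49% in sgControl, 64.5% and 100% in SKO and 100% and 100% in DKO, and its domains varied from 8.8 to 62.4 kb. None of the 26 myeloid lineage, 27 imprinted, 39 HOX and 18 housekeeping genes had a gaining peak. These lists are short beside a share of 3.15% over all genes, so a count of 0 in any of them tells little.

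DKO and SKO were then compared at peaks with an H3K9me3 domain in all 4 knockout libraries, a contrast the rule treats alike in both directions. The measure was the log2 of domain reads per M in the 10 kb window plus 0.1, tested with limma over 9563 peaks. The reads of a domain were spread evenly over it, so peaks in the same domain can carry the same value. Those of ATF7IP do. Counts of peaks are thus not counts of separate domains. No peak passed an adjusted p of 0.05 in either direction (0.0% called), and the smallest adjusted p was 0.0615 over all peaks and 0.0644 among gaining peaks. At an unadjusted p under 0.05 there were 1819 peaks (19.02%) in all and 269 gaining peaks (21.6%), 110 higher and 159 lower in DKO. The median log2 difference was −0.02 in gaining peaks and −0.07 over all peaks tested. In a 40 kb window limma called 37 gaining peaks higher (2.97%) and 77 lower (6.18%) in DKO. Over all peaks tested 0.805% were called higher and 5.98% lower in that window.

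By the coverage of the window, 11 gaining peaks were more and 11 less covered in DKO than in SKO, where a call needs libraries that do not overlap and a nearest pair at least 25 percentage points apart. These are 0.883% each, against 0.303% and 0.774% of the 9563 peaks with a domain in all 4 libraries. Both counts are small beside the 1246 peaks.

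The largest differences of density, none past the threshold, lay in or near the following genes. In CDYL2, a chromodomain protein gene, the log2 density was 4.40 and 4.51 in SKO and 3.13 and 2.95 in DKO, a difference of −1.42 ± 0.103 (SE, limma adjusted p = 0.0644). Its domain was 44.0 and 40.8 kb wide in SKO and 12 and 8.0 kb in DKO. At PTBP3, a splicing regulator gene, the density was 4.804 and 4.95 against 3.47 and 3.53. At CDYL, the relative of CDYL2, it was 5.49 and 5.45 against 4.18 and 4.33, with domains of nearly the same width. In each of these the libraries of a genotype lay close together and the genotypes did not overlap.

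In the other direction, RALB, a small GTPase gene, had a log2 density of 3.18 and 3.35 in SKO and 4.40 and 4.61 in DKO, with domains of 9.6 and 12 kb against 39.2 and 48.8 kb. Near CHSY1, a chondroitin synthase gene, the values were 2.76 and 2.62 against 3.8005 and 4.02, and in COL13A1, a transmembrane collagen gene, 2.21 and 2.79 against 3.59 and 3.79. These 6 peaks were taken for the size of their difference, so their separation is no further evidence.

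H3K27me3 stayed rare at the gaining peaks, and the rule admits at most 1 sgControl library with it. A domain overlapped 7 and 7 of the 1246 peaks in sgControl, 13 and 12 in SKO and 10 and 13 in DKO. Mean coverage of the window was 1.20 ± 0.0237% in sgControl, 1.52 ± 0.0356% in SKO and 1.42 ± 0.157% in DKO (SD, n = 2). By the coverage call, 11 gaining peaks gained and 4 lost H3K27me3 in SKO, 0.883% and 0.321%. Of all 10348 SETDB1 peaks that met the same sgControl condition, 3.56% gained and 0.802% lost it. In DKO 10 gained and 3 lost it, against 4.2% and 0.802% of the same peaks, and between DKO and SKO 1 gained and 1 lost it, against 1.41% and 0.377%. Gains at constant peaks under this condition were called in 4.65% in SKO and 5.73% in DKO, and at unmarked peaks in 0.316% and 0.475%. With 2 libraries against 2, an exact test cannot go below p = 0.3333, so these are calls without a p.

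The 5 strongest of the gaining peaks whose window was also called gained for H3K27me3 in both knockouts included a kinase subunit gene and a ubiquitin ligase receptor gene. Near CRBN, which encodes cereblon, H3K27me3 covered 0% and 0% of the window in sgControl, 100% and 93.7% in SKO and 93.7% and 69.7% in DKO, while H3K9me3 went from 0% and 0% to between 94.3% and 100%. At the start of CSNK2A1, the catalytic subunit gene of casein kinase II, H3K27me3 went from 0% and 0% to 35.1% and 35.1% in SKO and 35.1% and 43.1% in DKO. Near C6orf118 it went from 0% and 0% to 60.0%, 100%, 100% and 100%. At ZNHIT6 and LDAH it was 26.8% and 39.2% in every knockout library from 0% in sgControl. H3K9me3 already covered part of the sgControl window near C6orf118 (27.3% and 35.3%), at ZNHIT6 (10.8% and 26.8%) and at LDAH (23.2% and 39.2%). These peaks lay 0.042, 1.54 and 0.492 kb from a control H3K9me3 domain. The H3K27me3 call was made on the window, so a gain need not reach the peak itself. The domain lists are of whole cell populations and do not show whether both marks occupied the same molecules.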

How the data were processed

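Cells were fixed, sonicated and mixed with Drosophila chromatin as a spike-in, per the labels' protocols. The submitters' processing notes name SICER, deepTools 3.5.6, Trim Galore 0.6.10 and FastQC 0.12.1, with builds hg38 and dm6. The sources used here do not give the aligner, the SETDB1 peak caller or how multiply matching reads were handled. The deposited H3K9me3 and H3K27me3 files are epic2 domain lists per library, with a read count per domain not scaled for depth or spike-in and a score per domain, used here only for ranks within a list. The SETDB1 files give a −log10 p-value and a signal per peak, deposited by the authors for each library. Input samples were not analysed here.

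Peaks, domains and genes on hg38 were intersected with Python 3.11.15, pandas 2.3.3 and numpy 2.4.6. Domain reads were spread evenly over each domain, scaled to reads in domains on chromosomes 1 to 22, and log2(value + 0.1) was tested with limma 3.58.1 in R 4.3.3, with Benjamini-Hochberg adjustment over all 9563 peaks. The script was tested on simulated data. Unscaled by the spike-in, the values cannot show a change in the total amount of a mark. Replicate numbers did not pair libraries, with a correlation of −0.04 between the deviations of same-numbered SKO and DKO libraries.

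Peaks were named by a gene start within 2 kb, then by gene body, then by the nearest gene. Named were the 10 strongest in SETDB1, the 5 longest stretches, the 3 largest DKO minus SKO differences each way, up to 10 peaks in listed genes and 5 that gained H3K27me3, with further listed genes and promoters added after values were seen. The RefSeq table gives no exons. Members and gene lists were chosen with earlier results of these data known. Alternatives changed the libraries, thresholds, windows, overlaps and scaling.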

Additional observations from a re-analysis of the deposited data

Results flagged for a closer look

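On chromosome X, which the comparisons above leave out, 91 of 272 shared SETDB1 peaks met the same rule, 33.5%, against 10.4% on chromosomes 1 to 22. It is given here because it lies in data outside the main measurement. The share among chromosome X peaks without control H3K9me3, by which chromosomes 1 to 22 differed less, was not counted. Whether chromosome X stands out was not tested. Chromosome 22, with 33.8%, had a similar share.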

How the results depend on the processing

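The domain lists give called regions without input counts, so a peak can change class by 1 call. Depth and covered length differ between genotypes, and the sgControl lists cover more. Of 112 alternative values, 70 kept to within 1.5 times the main count and 42 did not. The cause of each shift was not tested. The 1246 gaining peaks became 537 with a SETDB1 −log10 p of 10 or more, which removes peaks, and 2751 with the H3K9me3 lists set to equal covered length, which removes mostly sgControl domains. Without 1 library at a time the count ranged from 1239 to 1728, the latter without sgControl H3K9me3 replicate 1. Leaving out an H3K9me3 library can only keep or raise the count, because the rule then asks less. The 1239 came from leaving out either sgControl H3K27me3 library. The ratio of SETDB1 summits per Mb in gained over constant sequence was 1.33 and ranged from 1.23 to 1.68 over alternatives chosen after the data had been seen.

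For DKO against SKO density, limma called no gaining peak, and none with the replicate block (0 higher, 0 lower), without any 1 library (0 to 0), or under another scaling, pseudocount or a 4 kb window. It called 37 higher and 77 lower in a 40 kb window, and 4 higher and 8 lower when peaks with a domain in any of the 4 libraries were tested. Over all peaks tested, the 40 kb window gave 77 higher and 572 lower of 9563. The other setting gave 59 higher and 233 lower of 10632.

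H3K27me3 counts were small. They cover the gaining peaks alone, and the share over all SETDB1 peaks was not counted at these settings. In a 40 kb window, SKO gained 22 and lost 26, DKO gained 23 and lost 20 against sgControl, and DKO gained 4 and lost 2 against SKO. Losses thus outnumbered gains in SKO there, whereas the 10 kb window gave 11 gained and 4 lost. In a 4 kb window SKO lost 2, and DKO gained 0 against SKO. With a nearest pair of 10 points SKO gained 17 and lost 11, DKO lost 12, and DKO lost 4 against SKO. With 50 points SKO lost 1, DKO gained 6 and lost 1, and DKO gained 0 against SKO. With the upper 50% of domains DKO lost 1 against sgControl and gained 2 and lost 2 against SKO. At equal covered length SKO lost 7, DKO lost 6, and DKO gained 2 against SKO. Without 1 library at a time, SKO gained 12 to 18 and lost 4 to 11, DKO gained 10 to 16 and lost 3 to 9, and DKO gained 1 to 3 and lost 1 to 4 against SKO. The upper ends were reached without SKO replicate 2 (18 gained), sgControl replicate 2 (11 and 9 lost) and DKO replicate 1 (16 gained). Leaving out a library can only keep or raise these counts, because a call then has fewer values to separate.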
